A study of Mus musculus with 4 samples.

Results

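The genes that surround Tas1r3 on the distal part of mouse chromosome 4 were compared between the hypothalamus of WD-fed Tas1r3-/- mice and that of WD-fed WT mice. A gene belonged to the region if its start in the GRCm39 GENCODE annotation, taken as its lower coordinate, lay from position 145943725, 10 Mb on the centromeric side of the start of Tas1r3, to the end of the chromosome. The table held 151 such genes, of which 10 were left out by name (Tas1r3 itself, Tas1r1 and 8 others), leaving 141 of the 16335 genes in the table. The 141 comprised 130 protein-coding genes, 8 long non-coding RNA genes, 2 pseudogenes and 1 miRNA gene. Of these, 126 passed the filter on low counts and were tested among 14340 genes, and the 15 that did not pass had at most 36.3 estimated counts over all libraries.

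Both groups were male C57BL/6 mice that received WD, a 60% fat diet with a 30% sucrose solution, for 12 weeks from young adulthood, and the hypothalamus was sequenced as bulk tissue. Tas1r3-/- mice carried a purchased constitutive targeted allele, had been backcrossed to C57BL/6, and were bred with their WT littermates from heterozygous parents. The processed values came from 2 libraries of each genotype, and p-values measure the spread between these 4 libraries. Mice on a normal diet were not analysed here. Library totals over the named transcripts were 5799003 and 6153440 estimated counts for WT WD replicates 1 and 2 and 6177693 and 5726320 for Tas1r3-/- WD replicates 1 and 2. In bulk tissue, fewer cells of a type and less RNA per cell cannot be told apart.

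TAS1R3 is the shared subunit of the sweet and umami taste receptors. Its gene lies near the end of chromosome 4, in a gene-dense stretch with little functional relation among neighbours: lipid transfer proteins, ARF and Wnt signalling proteins, mitochondrial ribosomal proteins and ubiquitin enzymes sit side by side. DNA next to a targeted gene is inherited together with it, because recombination between close positions is rare, and backcrossing removes it only slowly. The strain in which the allele was made is not given in the sources used here, and no sequence difference between the genotypes was examined.

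One library did not carry the hallmarks of the labelled tissue. All 12 hypothalamic neuropeptide genes on the list were measured, and their summed level was 2049 CPM (counts scaled to a common library size with TMM factors) in WT WD replicate 1, 64.4 CPM in WT WD replicate 2, and 1478 and 1432 CPM in the Tas1r3-/- WD replicates. The most abundant of them, Pmch, the precursor of melanin-concentrating hormone, was at 769, 6.59, 374 and 559 CPM in the same order, and none of the 12 was at 0 in any library. The 7 thalamus markers summed to 39.4, 1414, 65.9 and 146 CPM, with Prkcd the most abundant, and only Tnnt1 was at 0, in WT WD replicate 1. The 7 choroid plexus markers summed to 197, 1126, 201 and 176 CPM, with Enpp2 the most abundant on average and none at 0. In WT WD replicate 2, Ttr was at 678 CPM and Enpp2 at 371 CPM, whereas Kl and Clic6 were not above WT WD replicate 1. Kl was at 12.2, 12.0, 9.64 and 5.61 CPM and Clic6 at 40.9, 33.3, 35.5 and 30.9 CPM in the same order. The 6 anterior pituitary markers summed to 14.6, 1.81, 1428 and 4.39 CPM. Tas1r3-/- WD replicate 1 stood apart in Gh, the growth hormone gene, at 762 CPM. Gh, Prl, Cga and Tshb were at 0 in WT WD replicate 2. Tshb was also at 0 in WT WD replicate 1, and Pou1f1 in WT WD replicate 1 and Tas1r3-/- WD replicate 2. Cortex and hippocampus markers (5 genes) summed to 151, 340, 92.4 and 115 CPM, striatum markers (5 genes) to 143, 104, 248 and 129 CPM, and oligodendrocyte markers (6 genes) to between 4976 and 6185 CPM. Among the 126 tested genes of the region, 18 (14.3%) were at least 1.5-fold above or below all the other libraries in WT WD replicate 2, against 13.7% of all genes tested. Gene counts over the region and by role list are also given without this library, and by distance those of genes whose groups did not overlap. Also given without it are the log2 fold changes of several genes that it moved by more than 1.5 times. Transcript counts are given with all 4 libraries. The part of these markers' tissues in the differences was not tested otherwise.

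The targeted gene followed the labels. Tas1r3 (ENSMUSG00000029072, minus strand, chr4:155943725-155947819) had 35.3 and 27 estimated counts in the WT WD replicates and 7 and 7.01 in the Tas1r3-/- WD replicates. Both Tas1r3-/- libraries were below both WT libraries, with a log2 fold change of −2.13 (SE 0.42, edgeR adjusted p = 0.756). Dvl1 overlaps Tas1r3 on the other strand, and the strand setting of the counting is not given in the sources used here, so reads of the pair cannot be told apart there.

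Cptp, the nearest gene on the telomeric side, was higher in Tas1r3-/- mice. Cptp (ENSMUSG00000029073, minus strand, chr4:155949176-155953912) encodes a transfer protein that moves ceramide-1-phosphate between membranes, and 1356 bases separate it from Tas1r3 on the same strand. Its level was 11.3 and 11.7 CPM in the WT WD replicates and 42.7 and 42.1 CPM in the Tas1r3-/- WD replicates. The groups were far apart and the libraries of each group lay close together. The difference was 3.68-fold, with a log2 fold change of 1.88 (SE 0.15), and its unadjusted p = 7.40e-05 in edgeR was the smallest of all 14340 genes, yet its adjusted p was 0.756. DESeq2 called it, with an adjusted p of 3.13e-06, and without any single library the log2 fold change stayed between 1.86 and 1.90. Without WT WD replicate 2, edgeR called it as well, with an adjusted p of 0.00629. Cptp, Ttc34 and Acap3 were singled out with earlier results of these data known, so their p-values are descriptions.

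Cptp and Ints11 are read away from each other, and the stretch between their starts is shown because their values differed. The canonical GENCODE transcripts begin 89 bases apart, and Ints11 (ENSMUSG00000029034, plus strand), the endonuclease subunit of the Integrator complex, was at 22.9 and 24.7 CPM in the WT WD replicates and 24.9 and 26.8 CPM in the Tas1r3-/- WD replicates, a log2 fold change of 0.12 (SE 0.16). Without each library in turn, the log2 fold change of Ints11 lay between 0.06 and 0.18. The 89 bases (chr4:155953913-155954001, GRCm39, minus strand, 5′ to 3′ towards Cptp) hold 3 matches to CCAAT or its reverse complement ATTGG, in capitals, of which the last pair overlaps.
Ints11 to Cptp: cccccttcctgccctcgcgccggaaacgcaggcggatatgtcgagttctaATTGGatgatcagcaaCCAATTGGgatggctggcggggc
A second divergent pair lies next to it, Pusl1 on the minus strand and Acap3 on the plus strand, whose canonical starts are 26 bases apart (chr4:155976241-155976266, plus strand), with a GC box, GGGCGG or its reverse complement, in capitals.
Pusl1 to Acap3: ggtCCGCCCcgcctgaatggagaggc
Ttc34 is shown as the contrast, since no other gene begins within the 250 bases before its start (chr4:154921666-154921915, plus strand) and they hold none of the motifs searched.
Ttc34: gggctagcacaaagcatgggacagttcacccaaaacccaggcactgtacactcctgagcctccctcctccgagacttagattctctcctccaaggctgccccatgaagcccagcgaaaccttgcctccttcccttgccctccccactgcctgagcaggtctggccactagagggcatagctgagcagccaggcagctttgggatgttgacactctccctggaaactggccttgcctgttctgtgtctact
The motifs searched, on both strands, were the GC box (GGGCGG), the CCAAT box (CCAAT), the TATA box (TATAAA), the cyclic AMP response element (TGACGTCA) and the E-box (CACGTG). In the 250 bases before the canonical start of 14043 tested genes, a GC box was found in 48.6%, a CCAAT box in 35.4%, a TATA box in 7.04%, a cyclic AMP response element in 2.04% and an E-box in 7.70%. Among the 126 tested genes of the region, the shares in the same order were 58.7%, 32.5%, 5.56%, 2.38% and 9.52%, and the median GC content was 61.0% against 56.8%. The windows of Cptp, Acap3 and Ttc34 had a GC content of 69.2%, 68.0% and 58.0%. These matches describe the reference letters.

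Acap3 was lower in Tas1r3-/- mice. Acap3 (ENSMUSG00000029033, plus strand, chr4:155976246-155991876), a GTPase-activating protein for ARF6, was at 102 and 123 CPM in the WT WD replicates and 72.6 and 75.1 CPM in the Tas1r3-/- WD replicates. Both Tas1r3-/- values were below both WT values, 1.52-fold lower on average, with a log2 fold change of −0.61 (SE 0.15, edgeR unadjusted p = 0.00996 and adjusted p = 0.756). Without WT WD replicate 2 the log2 fold change was −0.46, under 1.5-fold. Its divergent partner Pusl1, a pseudouridine synthase-like protein, was at 11.5 and 13.2 CPM against 7.71 and 10.9 CPM, a log2 fold change of −0.41 (SE 0.27) that moved to −0.18 when Tas1r3-/- WD replicate 1 was left out and to −0.68 when Tas1r3-/- WD replicate 2 was. The Pusl1 gene overlaps both Ints11 and Acap3 on the other strand.

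Mxra8, an adhesion protein of the cell surface known as an entry receptor of alphaviruses, lies 19.8 kb on the centromeric side. It was at 18.7 and 17.5 CPM in the WT WD replicates and 11.6 and 12.5 CPM in the Tas1r3-/- WD replicates, a log2 fold change of −0.59 (SE 0.19). Aurkaip1, a protein of the mitochondrial ribosome, was at 62.9 and 77.0 CPM against 49.5 and 56.0 CPM, a log2 fold change of −0.41 (SE 0.16) that was −0.26 without WT WD replicate 2. Groups did not overlap for either gene. Ube2j2, a ubiquitin-conjugating enzyme of the endoplasmic reticulum 84.4 kb on the telomeric side, was at 18.6 and 17.6 CPM against 26.7 and 21.8 CPM, a log2 fold change of 0.42 (SE 0.19) that was 0.26 without Tas1r3-/- WD replicate 1.

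The remaining 4 of the 11 genes that start within 0.1 Mb of Tas1r3 differed little. Ccnl2, a cyclin of splicing speckles, had a log2 fold change of −0.08 (SE 0.12). Mrpl20, of the mitochondrial ribosome, had −0.15 (SE 0.16; −0.02 without Tas1r3-/- WD replicate 1 and −0.29 without Tas1r3-/- WD replicate 2), Vwa1, a matrix protein, 0.09 (SE 0.14), and Dvl1, a transducer of Wnt signals, −0.14 (SE 0.17). Groups overlapped for Mrpl20, Vwa1 and Dvl1. Of the 11 genes, 3 had an unadjusted p under 0.05 (Cptp, Acap3 and Mxra8), with Cptp higher and the other 2 lower, against 5.38% of all genes tested, and Cptp and Acap3 were singled out with results known. The count without WT WD replicate 2 was also 3, against 13.7%.

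**Figure D1:**
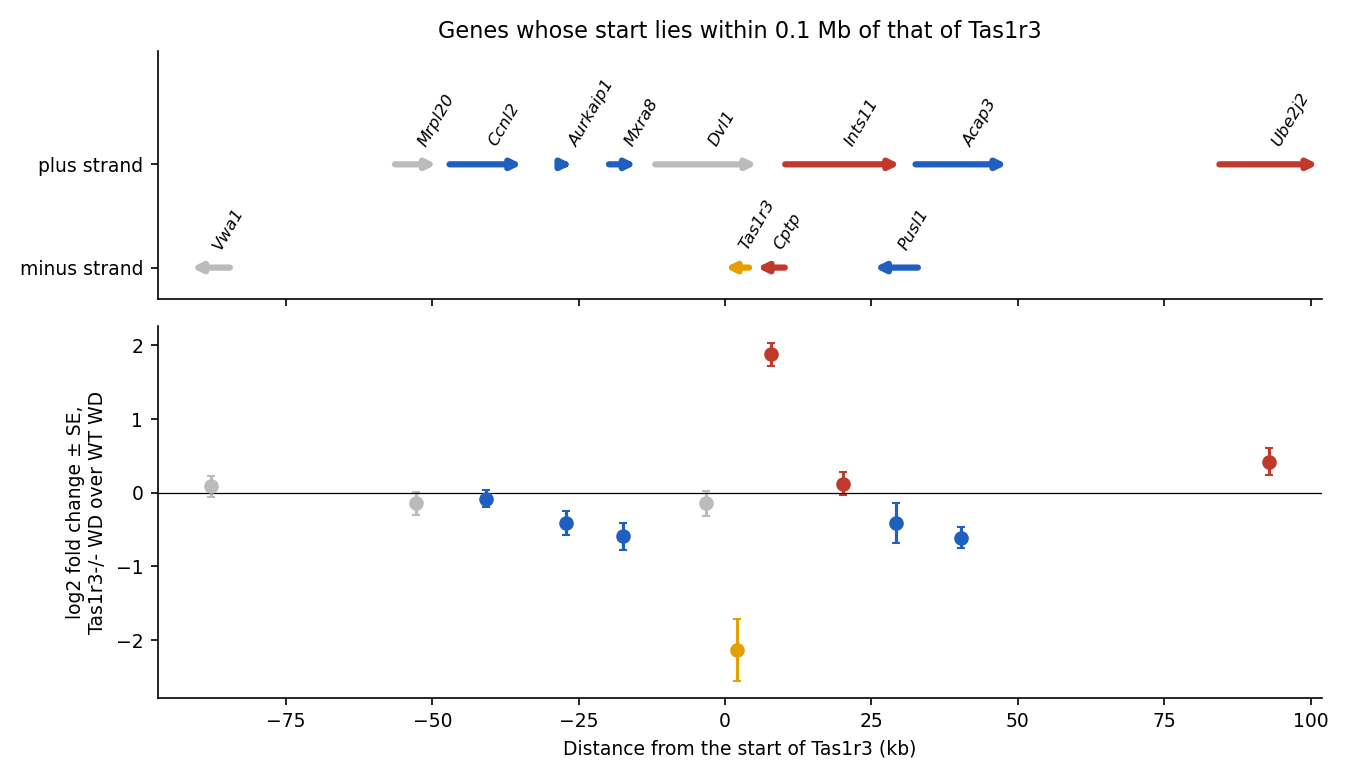
Genes whose start lies within 0.1 Mb of that of Tas1r3. The upper part shows the span and direction of each gene in kb from the start of Tas1r3, and the lower part its log2 fold change (Tas1r3-/- WD over WT WD, 2 libraries each) with the standard error; red and blue mark genes whose Tas1r3-/- libraries both lay above or below both WT libraries, grey marks overlap and orange marks Tas1r3. Cptp stands at 1.88, next to Tas1r3 at −2.13, and Ints11, which starts beside Cptp, at 0.12.

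Over the whole region, no gene passed an adjusted p of 0.05 in edgeR, where the smallest adjusted p was 0.756 both in the region and over all genes, and the share of all 14340 genes called was 0.0%. DESeq2 called 1 of the 126 (Cptp) and 8 genes in all (0.0558%). At an unadjusted p under 0.05, edgeR counted 15 of 126 (11.9%), 8 higher and 7 lower, against 5.38% of all genes tested (3.5% higher and 1.88% lower) and 4.72% of the 742 tested genes on the rest of chromosome 4. Of the 15, Zfp982 and Masp2 passed the filter on low counts only through their high group, which leaves 13, and of the 772 over all genes 39 did so. DESeq2 counted 9 (7.14%) against 2.74%, and its 9 also include Zfp982 and Masp2. Both Tas1r3-/- libraries lay above both WT libraries for 29 genes and below them for 36, together 51.6% of the 126, against 39.6% of all genes (20.6% above and 19.0% below) and 38.7% of the rest of chromosome 4. A difference of at least 1.5-fold was seen for 25 genes (19.8%) against 11.6%, and the median size of the log2 fold change was 0.27 against 0.20. The direction was mixed: the median log2 fold change was −0.04, against −0.01 over all genes tested.

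These shares moved with every library, but the region stayed above all genes in each fit. With a library left out, enough counts in 1 library passed a gene through the filter on low counts. Some genes therefore passed only through their high group and are among those counted. Without WT WD replicate 1, the only WT library was the one with raised thalamus markers, so that fit cannot separate genotype from tissue. The genes called in that fit include Zfp992, Zfp982 and Masp2, which passed the filter on low counts only through their high group. Without WT WD replicate 2, 27 of 129 genes (20.9%) had an unadjusted p under 0.05 against 13.7% of all genes, and groups did not overlap for 103 (79.8%) against 75.0%. Without WT WD replicate 1, the counts were 55 of 131 (42.0%) against 33.7% and 115 (87.8%) against 82.3%. Without Tas1r3-/- WD replicate 1 they were 4 of 129 (3.10%) against 0.628% and 85 (65.9%) against 59.4%, and without Tas1r3-/- WD replicate 2 they were 4 of 130 (3.08%) against 0.885% and 92 (70.8%) against 61.9%. The number of DEGs (adjusted p under 0.05 and at least 1.5-fold) in the region was 2 without WT WD replicate 2 (Cptp and Zfp982, which passed the filter on low counts only through its high group), where 0.218% of all genes were called, 19 without WT WD replicate 1, where 14.3% were called, and 0 without either Tas1r3-/- library.

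**Figure D2:**
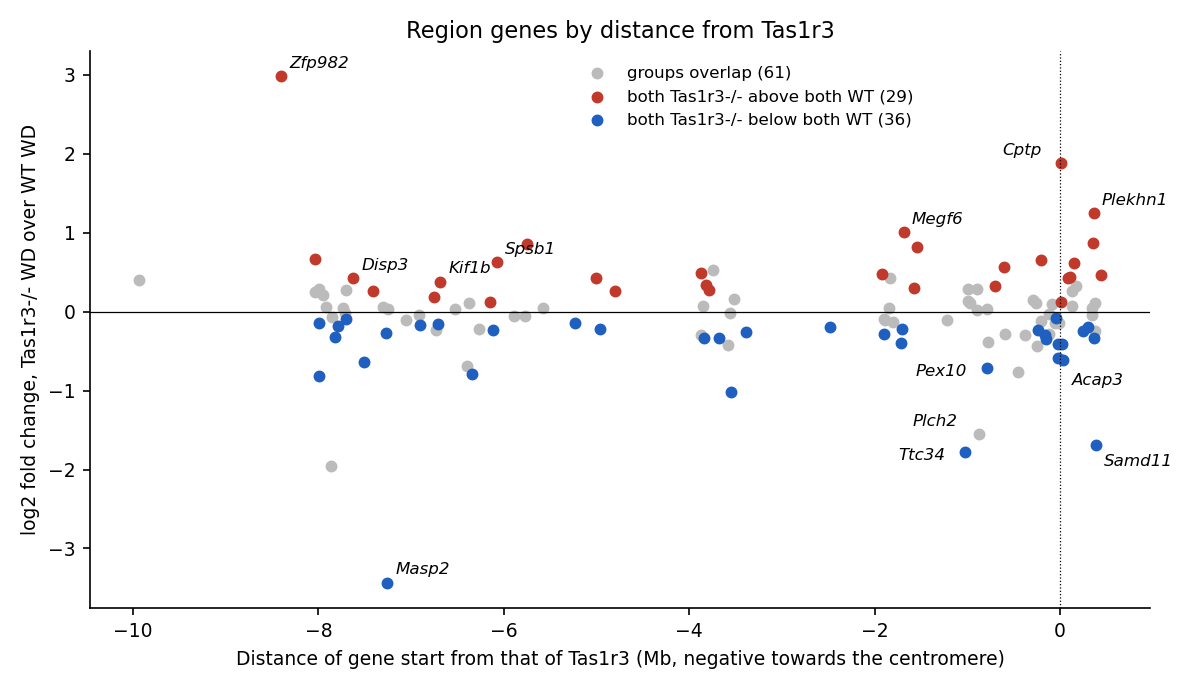
Log2 fold change (Tas1r3-/- WD over WT WD, 2 libraries each) of the 126 tested genes against the distance of their start from that of Tas1r3 in Mb. Red points (29) and blue points (36) mark genes whose Tas1r3-/- libraries both lay above or below both WT libraries, and grey points (61) mark overlap; genes of both directions lie along the whole stretch, and Cptp stands next to the dotted line at Tas1r3.

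With all 4 libraries, distance from Tas1r3 did not order these shares. On the telomeric side, where the last gene (Dhrsx) starts 446 kb from Tas1r3, 4 of 21 tested genes had an unadjusted p under 0.05, against 5.38% of all genes, and groups did not overlap for 14 (66.7%), against 39.6%. On the centromeric side, the same counts were 1 and 7 of 18 (38.9%) under 0.5 Mb, 3 and 11 of 26 (42.3%) from 0.5 to 2 Mb, 0 and 10 of 16 (62.5%) from 2 to 5 Mb, and 7 and 23 of 45 (51.1%) from 5 to 10 Mb. The 7 genes from 5 to 10 Mb include Zfp982 and Masp2, which passed the filter on low counts only through their high group. From 10 to 20 Mb, outside the region, the same counts were 6 of 80, all higher in Tas1r3-/- mice, and 25 (31.3%), against the same shares of all genes. Those 6 include Tnfrsf8, which passed the filter on low counts only through its high group. The median log2 fold change was 0.10 on the telomeric side and −0.19 within 0.5 Mb on the centromeric side, where 14 of 18 genes had a lower mean in Tas1r3-/- mice, against 7311 of 14340 over all genes. With WT WD replicate 2 left out, the medians were −0.03 and −0.08, and 10 of those 18 genes had a lower mean. Without WT WD replicate 2, groups did not overlap for 18 of 21 genes on the telomeric side and, going out on the centromeric side, for 12 of 18, 19 of 26, 14 of 16 and 40 of 48, against 75.0% of all genes. In that fit, some genes passed the filter on low counts only through their high group. From 5 to 10 Mb these include Zfp982, Zfp984, Zfp991, Draxin, Gm13034, Nppa and Masp2. The median size of the log2 fold change in that fit was 0.26 on the telomeric side, against 0.19 over all genes. Going out on the centromeric side it was 0.15, 0.23, 0.19 and 0.26. Counts at an unadjusted p under 0.05 by distance are not given for that fit. No test of these differences between distances was made.

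**Figure D3:**
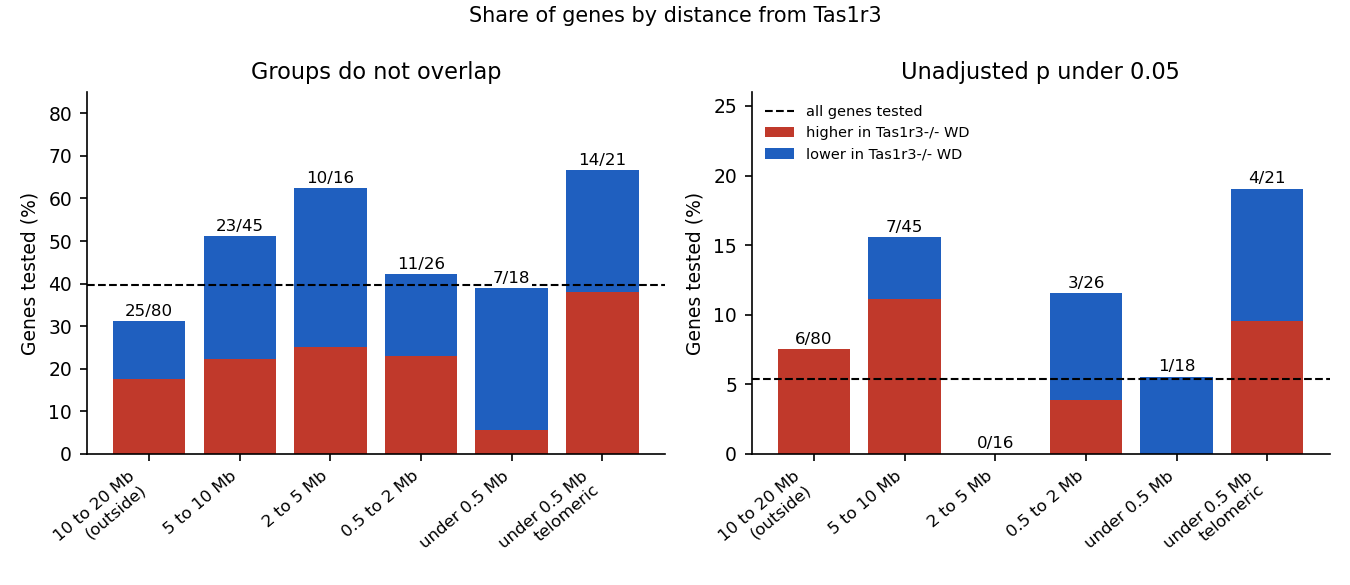
Share of tested genes, in percent, whose groups did not overlap (left) and whose unadjusted edgeR p was under 0.05 (right), by distance from Tas1r3 on the centromeric side and, in the last bar, on the telomeric side. Red is higher and blue lower in Tas1r3-/- WD, the numbers over the bars are genes counted of genes tested, and the dashed line is the share over all genes tested (39.6% and 5.38%); the telomeric bar is the tallest on both sides and the 2 to 5 Mb bar holds 0 genes on the right.

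Among lipid, cofactor and other enzymes and transporters, 23 genes of the region were tested, 1 was higher (Cptp) and 1 lower at an unadjusted p under 0.05 (8.70% against 5.38% of all genes), and groups did not overlap for 9 (39.1% against 39.6%). The counts without WT WD replicate 2 were 5 (21.7% against 13.7%) and 19 (82.6% against 75.0%). Acot7, a brain acyl-CoA thioesterase and the most abundant of them at 142 CPM per kb of exon, was at 380 and 530 CPM against 358 and 361 CPM, a log2 fold change of −0.34 (SE 0.20) that was −0.08 without WT WD replicate 2. Clcn6, a chloride-proton exchanger of late endosomes, was at 200 and 168 CPM against 173 and 176 CPM. Plch2, a phospholipase C, was at 55.7 and 308 CPM against 58.3 and 65.4 CPM. Its log2 fold change of −1.56 (SE 0.78) came from WT WD replicate 2, the library with raised thalamus markers, and was 0.15 without it.

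Among receptors and signalling proteins, 18 genes were tested, 3 were higher (Disp3, Spsb1 and Errfi1) and 1 lower (Acap3) at an unadjusted p under 0.05 (22.2% against 5.38% of all genes), and groups did not overlap for 10 (55.6% against 39.6%). The counts without WT WD replicate 2 were 5 (27.8% against 13.7%) and 13 (72.2% against 75.0%). Disp3, a membrane protein with a sterol-sensing domain, was at 59.8 and 58.8 CPM in the WT WD replicates and 80.5 and 78.6 CPM in the Tas1r3-/- WD replicates, a log2 fold change of 0.42 (SE 0.12). Spsb1, a SOCS-box adaptor of ubiquitin ligases, was at 18.6 and 22.9 CPM against 34.1 and 29.8 CPM, a log2 fold change of 0.62 (SE 0.19). Errfi1, an inhibitor of the EGF receptor that was named after its values were seen, was at 27.8 and 29.7 CPM against 36.6 and 40.5 CPM. In these 3 genes the libraries of each genotype lay on their own side. Gnb1, the G protein beta subunit, was at 478 and 749 CPM against 463 and 538 CPM, and Sdf4, a calcium-binding protein of the Golgi, at 335 and 251 CPM against 305 and 311 CPM. Ctnnbip1, an inhibitor of beta-catenin, was at 40.04 and 95.9 CPM against 39.9 and 38.6 CPM, and its log2 fold change of −0.79 (SE 0.42) was −0.03 without WT WD replicate 2. TNF receptor family genes were near the limit of detection: 4 were listed and 1 was tested, Tnfrsf18, at 3.27 and 1.15 CPM against 3.21 and 2.28 CPM. Its groups overlapped with all libraries, and without WT WD replicate 2 both Tas1r3-/- values lay below the WT value.

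Among nuclear and RNA-processing genes, 25 were tested, 0 were higher and 1 was lower (Samd11) at an unadjusted p under 0.05 (below the 5.38% of all genes), and groups did not overlap for 15 (60.0% against 39.6%), 7 above and 8 below. The counts without WT WD replicate 2 were 4 (16.0% against 13.7%) and 23 (92.0% against 75.0%). Samd11, a SAM-domain protein of chromatin, was at 16.2 and 36.6 CPM in the WT WD replicates and 7.71 and 8.60 CPM in the Tas1r3-/- WD replicates. All 4 values kept the genotypes apart, but the WT libraries differed from each other by more than the Tas1r3-/- libraries did. Its log2 fold change of −1.69 (SE 0.44) was −0.99 without WT WD replicate 2. Camta1, a calmodulin-binding transcription activator, was at 387 and 349 CPM against 442 and 439 CPM, and Chd5, a chromatin remodeller of neurons, at 562 and 335 CPM against 514 and 488 CPM. Prdm16, a transcription regulator of neural stem cells and brown fat, was at 25.4 and 16.0 CPM against 25.9 and 47.0 CPM, and its log2 fold change of 0.81 (SE 0.38) was 0.32 when Tas1r3-/- WD replicate 2 was left out and 0.51 when WT WD replicate 2 was.

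Mitochondrial, peroxisomal and other organelle genes numbered 11, all tested, with 1 lower (Pex10) at an unadjusted p under 0.05 (9.09% against 5.38% of all genes) and groups that did not overlap for 7 (63.6% against 39.6%), of which 6 were lower in Tas1r3-/- mice, a direction that held for 19.0% of all genes. The counts without WT WD replicate 2 were 1 (9.09% against 13.7%) and 9 (81.8% against 75.0%), with 6 of the 11 lower against 5525 of 14710 over all genes. Their median log2 fold change was −0.15, against −0.01 over all genes tested. Pex10, a ubiquitin ligase of peroxisomal protein import, was at 15.5 and 17.0 CPM in the WT WD replicates and 9.96 and 9.82 CPM in the Tas1r3-/- WD replicates, a log2 fold change of −0.71 (SE 0.20). Mfn2, a mitofusin, was at 272 and 257 CPM against 246 and 233 CPM, and Park7, a redox-sensitive chaperone linked to parkinsonism, at 94.9 and 99.6 CPM against 79.9 and 87.0 CPM. In Mfn2 and Park7 the groups did not overlap, and their log2 fold changes of −0.14 (SE 0.13) and −0.22 (SE 0.13) were small.

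All 6 neuronal adhesion, transport and synaptic genes were tested, and 1 was higher (Kif1b) at an unadjusted p under 0.05 (16.7% against 5.38% of all genes). Groups did not overlap for 3 of the 6, against 39.6% of all genes. The counts without WT WD replicate 2 were 2 (33.3% against 13.7%) and 4 (66.7% against 75.0%). Kif1b, a kinesin that carries mitochondria and synaptic vesicle precursors along axons, was at 621 and 635 CPM in the WT WD replicates and 820 and 812 CPM in the Tas1r3-/- WD replicates, a log2 fold change of 0.38 (SE 0.12). The libraries of each genotype differed by much less than the genotypes. Clstn1, a calsyntenin and the most abundant protein-coding gene of the region at 250 CPM per kb of exon, was at 1299 and 1833 CPM against 1297 and 1399 CPM, a log2 fold change of −0.22 (SE 0.20) that was 0.05 without WT WD replicate 2.

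Among cytoskeletal, ciliary, matrix and remaining membrane genes, 16 were tested, 2 were higher (Megf6 and Plekhn1) and 2 lower (Ttc34 and Mxra8) at an unadjusted p under 0.05 (25.0% against 5.38% of all genes), and groups did not overlap for 10 (62.5% against 39.6%). The counts without WT WD replicate 2 were 4 (25.0% against 13.7%) and 11 (68.8% against 75.0%). Ttc34 (ENSMUSG00000046637, plus strand, chr4:154921916-154951584), a protein of tetratricopeptide repeats, was at 16.3 and 15.2 CPM in the WT WD replicates and 5.62 and 3.51 CPM in the Tas1r3-/- WD replicates. It was 3.45-fold lower in Tas1r3-/- mice, with a log2 fold change of −1.78 (SE 0.31, edgeR unadjusted p = 0.00238 and adjusted p = 0.756), and DESeq2 gave an adjusted p of 0.158. Without each library in turn its log2 fold change lay between −2.16 and −1.49. The long non-coding gene Gm13112 overlaps its end on the other strand.

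Megf6, a secreted protein of EGF repeats, was at 18.6 and 9.39 CPM in the WT WD replicates and 28.3 and 27.9 CPM in the Tas1r3-/- WD replicates, a log2 fold change of 1.01 (SE 0.34) that was 0.60 without WT WD replicate 2. Plekhn1, a pleckstrin homology domain protein, was at 7.56 and 3.63 CPM against 15.1 and 11.4 CPM, a log2 fold change of 1.25 (SE 0.42) that was 0.81 without WT WD replicate 2. Plekhn1 overlaps Klhl17 on its own strand, so their reads may be shared. Rnf207, a RING finger protein of the heart, was at 7.91 and 17.6 CPM against 5.62 and 7.02 CPM, and its log2 fold change of −1.02 (SE 0.45) was −0.32 without WT WD replicate 2. Tmem201, of the inner nuclear membrane, was at 107 and 93.5 CPM against 107 and 111 CPM, and Tprg1l, a presynaptic vesicle protein, at 207 and 210 CPM against 169 and 189 CPM.

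Zinc finger genes of the KRAB type, which repress transposable elements, form a cluster of near-identical copies at the centromeric end of the region, so their counts may be split between copies. Of 6 listed, 2 were tested, Zfp982 and Zfp933, and the other 4 had too few counts. Zfp982 had 0.0149 and 9.11 estimated counts in the WT WD replicates and 43.5 and 29.1 in the Tas1r3-/- WD replicates, with a log2 fold change of 2.98 (SE 1.01). It passed the filter on low counts only through the group where it was high, so its p supports nothing, and without WT WD replicate 2 its mean in Tas1r3-/- mice was at least 11.8-fold higher than the 3 counts taken as the floor of WT WD replicate 1. Zfp933 was at 7.73 and 11.5 CPM against 15.4 and 15.1 CPM, a log2 fold change of 0.66 (SE 0.27) that was 0.41 without WT WD replicate 1. Zfp992, one of those not tested, had 5.94 and 20.4 estimated counts in the WT WD replicates and 2.60 and 2.09 in the Tas1r3-/- WD replicates, the opposite order. Zfp984, also not tested, had 0.000328 and 2.08 against 7.19 and 13.3 estimated counts, the same order as Zfp982, and for Zfp979 and Zfp991 the groups overlapped. Without WT WD replicate 2, 4 of the 6 were tested, 3 had an unadjusted p under 0.05 and all 4 were above WT, but Zfp982, Zfp984 and Zfp991 then passed the filter only through their high group, so these counts support nothing. Masp2, the serine protease of the lectin pathway of complement, in none of the role lists, went the other way, at 4.30 and 3.30 CPM in the WT WD replicates and 0.643 and 0 CPM in the Tas1r3-/- WD replicates. Its WT mean was at least 7.21-fold higher than the floor of Tas1r3-/- WD replicate 2. Masp2 likewise passed the filter only through its high group, and it overlaps Tardbp on the other strand.

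**Figure D4:**
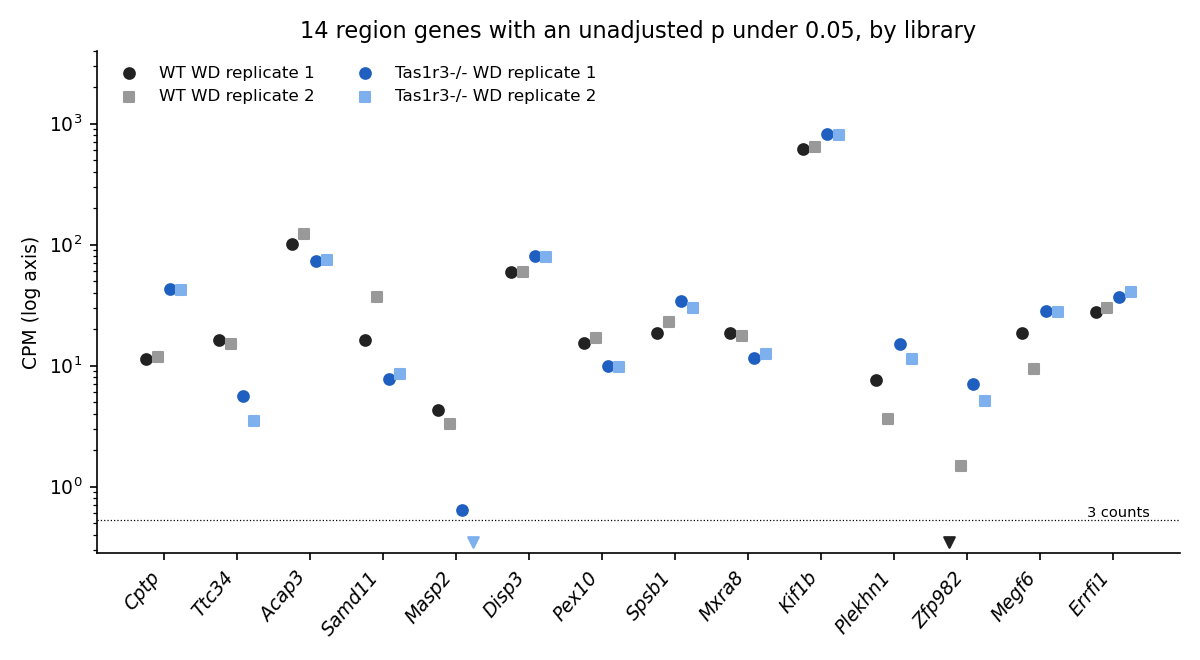
CPM on a log axis in each of the 4 libraries for 14 of the 15 genes of the region with an unadjusted edgeR p under 0.05, from the smallest p at the left. Triangles mark a count of 0 and the dotted line the level of 3 counts; for all 14 genes the blue Tas1r3-/- points lie on one side of the black and grey WT points, closest together within genotypes for Cptp, Disp3 and Kif1b and widest apart between the WT libraries for Samd11, Megf6 and Plekhn1 among genes with no triangle.

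The deposited values are per RefSeq transcript, and 64 genes of the region have more than 1. Of 280 transcripts listed, 246 were tested, 17 (6.91%) had an unadjusted p under 0.05 against 4.6% of 25725 transcripts, and groups did not overlap for 105 (42.7%) against 35.7%. In edgeR no transcript was called (smallest adjusted p 0.940), and DESeq2 called 1, that of Cptp, with 0.0272% called in all. Cptp, Ttc34 and Acap3 each have 1 listed transcript. In 5 genes, Exosc10, Fbxo6, Mad2l2, Mib2 and Nol9, a transcript with an unadjusted p under 0.05 went with other transcripts in the opposite direction. These and Ube2j2 were named after their values were seen. Exosc10 is among them through a transcript that passed the filter on low counts only through its high group, so its p supports nothing, and 2 of the 17 transcripts were of this kind.

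Exosc10, a nuclease of the RNA exosome, had 1.23 and 1.38 estimated counts of NM_001355489 in the WT WD replicates and 26.4 and 29.1 in the Tas1r3-/- WD replicates, while the gene sum had a log2 fold change of 0.05. That gene sum was at 0.24 without WT WD replicate 1 and at −0.10 without WT WD replicate 2. Mib2, a ubiquitin ligase of Notch ligands, had 167 and 131 estimated counts of NM_001369163 against 54.4 and 39.6, with a gene sum at −0.12. Ube2j2 had 21.9 and 14.8 estimated counts of NM_001284312 against 77.8 and 55.5, which was 20.4% and 13.8% of its gene sum in the WT WD replicates and 46.9% and 44.6% in the Tas1r3-/- WD replicates. For each of these 3 transcripts both Tas1r3-/- libraries lay on one side of both WT libraries. Mad2l2, a subunit of DNA polymerase zeta, had 18.3% and 18.9% of its gene sum in NM_001305420 in the WT WD replicates and 67.6% and 46.4% in the Tas1r3-/- WD replicates. Estimates for the transcripts of a gene divide the same reads, and none of these transcripts passed an adjusted p of 0.05 in edgeR or DESeq2.

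**Figure D5:**
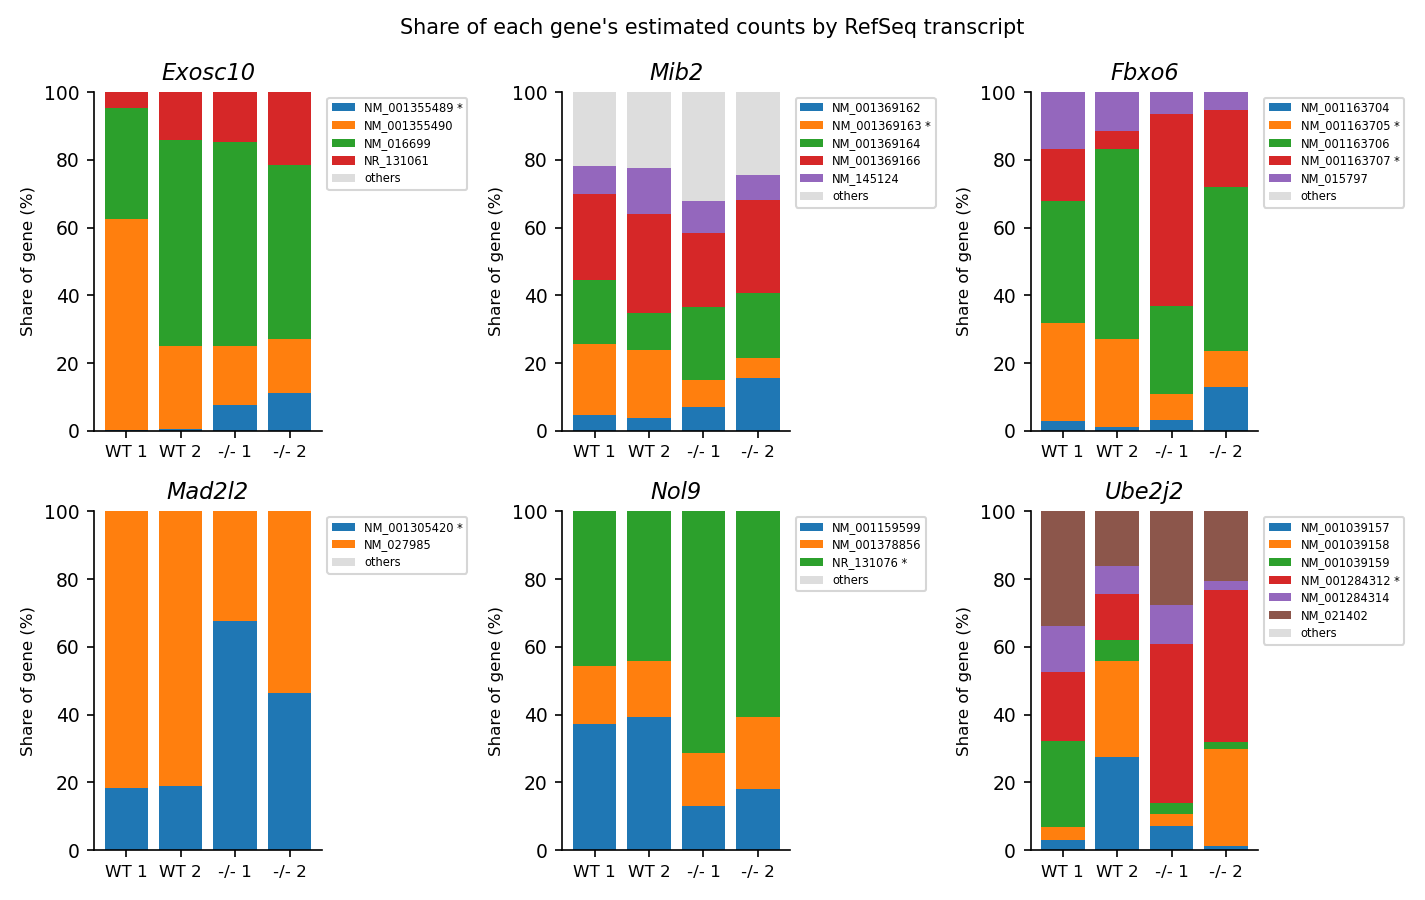
Share of each gene's estimated counts by RefSeq transcript, in percent, in the 2 WT WD libraries (WT 1, WT 2) and the 2 Tas1r3-/- WD libraries for 6 genes of the region; transcripts under 10% in every library are pooled as others, and an asterisk marks an unadjusted edgeR p under 0.05, which for Exosc10 comes from a transcript that passed the filter on low counts only through its high group. The Ube2j2 transcript NM_001284312 takes 20.4% and 13.8% in WT and 46.9% and 44.6% in Tas1r3-/-, while shares also differ between libraries of a genotype, as for Exosc10 in WT.

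The limit of the region was set by distance, and its members were chosen with earlier results of these data known. The nearest tested genes inside it were Gm13034, Zfp982 and Rps19-ps3, a pseudogene that can share reads with Rps19, with log2 fold changes of 0.40, 2.98 and 0.25. Gm13034 was at −0.10 without Tas1r3-/- WD replicate 1, and Rps19-ps3 at −0.02 without WT WD replicate 2. Just outside lay Smarca5-ps with 0.07, Tnfrsf8 with 3.13 and Tnfrsf1b, a receptor of TNF, with 0.59. Tnfrsf8, the receptor CD30, had 6.04 and 9 estimated counts in the WT WD replicates and 78.0 and 55.9 in the Tas1r3-/- WD replicates. It starts 10.95 Mb from Tas1r3. Tnfrsf8 passed the filter on low counts only through its high group, so its place among the 8 genes that DESeq2 called over the whole table supports nothing.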

How the data were processed

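RNA-seq values of 4 hypothalamus libraries, 2 of each genotype, were used. Per the labels and the study's methods, the authors aligned Ion Torrent reads from rRNA-depleted mRNA with STAR (mouse build mm39, Partek Flow) and then quantified RefSeq transcripts. The deposited estimated counts (expected counts per transcript, 13.0% of them whole numbers) were not normalised, and only transcripts with a total of at least 10 were listed. Of 30930 transcripts, 30886 had a gene symbol in the RefSeq table and were summed to 16335 genes. The 44 others, which held between 0.385% and 2.53% of the counts of a library, stayed out. GRCm39 GENCODE coordinates were found for 15921 genes, 101 of them by an older name, and 3 genes of the stretch without a match were left out. Of the 141 genes, 56 overlap another gene of the table, 55 on the other strand.

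Gene sums were rounded and tested with edgeR 4.0.16 in R 4.3.3 (TMM, filterByExpr, quasi-likelihood test, Benjamini-Hochberg adjustment over all 14340 genes). A DEG had an adjusted p under 0.05 and at least 1.5-fold. CPM were computed with TMM factors. DESeq2 1.42.0, which the study's methods name, and limma 3.58.1 were alternatives, as were other scalings, filters and windows, the replicate number as a block, and each library left out. Named genes were Cptp, Ttc34 and Acap3, those within 0.1 Mb of Tas1r3, the 10 smallest p, the 5 highest and 5 lowest log2 fold changes at 5 CPM or more, the 5 most abundant, the 2 most abundant of each role list, and genes called by another tool. One gene that the rule names is not reported here. The members and lists were chosen with earlier results of these data known. Fits were tested on simulated data. The floor of 3 counts covers counting error only, and depth was alike in all libraries. The labels do not say that replicates are separate mice, and the methods give 3 mice per group, of which 2 libraries were used here.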

Additional observations from a re-analysis of the deposited data

How the results depend on the processing

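Scalings, filters and tests not named here kept each count of genes within 1.5 times its value. With a library left out, the group of 1 was assumed to vary like the other, and a gene could pass the filter on low counts through 1 library. DESeq2 gave 1 DEG in the region, 2 in the window of 20 Mb, 8 over all genes, 9 region genes at an unadjusted p under 0.05, and 1 called transcript of Cptp, Ttc34 and Acap3 (this last chosen after seeing the data). Windows of 2 Mb and 5 Mb, which hold fewer genes, gave 8 and 8 genes at an unadjusted p under 0.05, and 32 and 42 genes whose groups did not overlap. The median log2 fold change of the region was −0.0130 with limma, −0.0183 without the filter, −0.0135 with the replicate block and −0.0154 in the window of 20 Mb. Leaving out each library in turn gave 0 to 19 DEGs in the region, 0 to 2121 over all genes, 4 to 55 genes at an unadjusted p under 0.05, 85 to 115 genes whose groups did not overlap, and medians from −0.0475 to 0.0137. Same-numbered libraries deviated together with a correlation of 0.0821. With 2 libraries in each group this is a single value, so it cannot decide whether the numbers pair them. The replicate block gave 0 DEGs and 14 genes at an unadjusted p under 0.05. Of 426 values of 39 named genes under an alternative, 394 kept direction and side of an adjusted p of 0.05, 23 moved under it, of which 16 were also at least 1.5-fold, and 9 reversed. The reversals all came with a library left out, and the ranges over the libraries left out were −0.193 to 0.0610 for Clcn6, −0.280 to 0.0124 for Dvl1 (both positive without WT WD replicate 1), −0.0166 to 0.182 for Vwa1 (negative without Tas1r3-/- WD replicate 1), and, reversed without WT WD replicate 2, −0.438 to 0.0536 for Clstn1, −0.166 to 0.587 for Chd5, −2.31 to 0.152 for Plch2, −0.577 to 0.0646 for Gnb1, −0.123 to 0.301 for Sdf4 and −0.242 to 1.25 for Tnfrsf18. The cause was not tested.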
